A study of Mus musculus with 15 samples.

Results

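The mitochondrial apoptosis genes described here are a short list of 6: the pro-survival genes Bcl2l1 and Mcl1, the pore-forming genes Bax and Bak1, and the apoptosome genes Apaf1 and Casp9. They were taken by name from the 9666 rows of a table of RPKM, a read density scaled to gene length and to library size, and 5 of the 6 were found. The genes were chosen with earlier results of these data known. Apaf1, which encodes the scaffold of the apoptosome, was not analysed here, because each row of the table is above 0.1 RPKM in every library and Apaf1 has no row. The libraries were made with an Illumina kit from TRIzol-extracted total RNA of ventricular cardiomyocytes of WT C57BL/6 mice. There were 4 libraries from postnatal day 1 (P1), 4 from postnatal day 3 (P3) and 7 from adults of 8 to 12 weeks. Strain, genotype and labelled cell type were the same in all. The samples are not stated to come from separate animals, so the p-values below rest on a spread between libraries that could be technical.

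In the mitochondrial route to cell death, Bax and Bak1 encode proteins that assemble into pores in the outer mitochondrial membrane, while the proteins encoded by Bcl2l1 (BCL-XL) and Mcl1 hold them in check. BH3-only proteins relay stress signals by binding the guardians or the pore formers. Cytochrome c that leaves through the pores binds APAF1, which assembles into the apoptosome and activates caspase-9, the product of Casp9, and this starts the executioner caspases. Mature heart muscle is a long-lived tissue known for a low apoptotic priming compared with the young heart, and loss of Mcl1 from adult mouse heart muscle is known to be lethal.

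The libraries differed in the summed deposited RPKM of cell type markers. The summed RPKM of 10 cardiomyocyte markers, all of them in the table, was 4267 to 8976 at P1, 567 to 5193 at P3 and 14170 to 27440 in adults. Within P3, library 1 had 5193 and libraries 2 to 4 had 567 to 1128, so the label of cardiomyocytes is less well borne out in those 3. The endothelial markers, 9 of 10 in the table, summed to 210 to 481 at P1, 706 to 1668 at P3 and 2.74 to 215 in adults. In P3 libraries 3 and 4 the endothelial sum (1239 and 1668) was above the cardiomyocyte sum (613 and 567). The fibroblast markers, 4 of 8 in the table, summed to 158 to 1331 at P1, with the highest value in library 1, 367 to 791 at P3 and 0.917 to 68.5 in adults. Mural markers, 3 of 6 in the table, summed to 110 to 503, 407 to 711 and 19.4 to 98.3 at P1, P3 and in adults, while 0 of 6 immune and 0 of 3 erythroid markers were in the table. The part of other cell types in the results below was not tested, and in bulk RNA fewer cells of a type and less RNA per cell cannot be told apart.

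A second feature touches every result. On the scale of the tests, log2(RPKM + 0.5), the median change over the 9389 tested genes was -1.36 for adult against P1, -1.48 for adult against P3 and 0.09 for P3 against P1. The changes in adults are therefore given on the deposited scale and again after each library was shifted to an equal median gene, called the median-gene scale below. A gene was called when its limma p-value, adjusted by Benjamini-Hochberg over all 9389 genes, was under 0.05 and its log2 change was at least 1 in size. RPKM is given per gene and does not separate isoforms, such as the long pro-survival and short pro-death forms of Bcl2l1.

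The genes lie on 5 chromosomes in the mm10 build, by GENCODE. Bcl2l1 spans chr2:152780668-152831728 on the minus strand, Mcl1 chr3:95658788-95663176 on the plus strand and Bax chr7:45461697-45466898 on the minus strand. Bak1 spans chr17:27019810-27029009 on the minus strand and Casp9 chr4:141793612-141815976 on the plus strand. Bak1 overlaps Ggnbp1, and Casp9 overlaps Cela2a and Ctrc, on the opposite strand, and Bax overlaps Gm45808 on its own strand. None of these 4 neighbours has a row in the table, and whether reads were counted by strand is not known, which makes the share of reads from the overlaps uncertain.

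The stretches before the start sites are shown for the gene with the deepest fall in adults on the deposited scale (Bax), the gene with the highest adult level (Mcl1) and the gene with the smallest fall in adults on that scale (Casp9), as the 250 bases upstream of the RefSeq start on GRCm38.p6, which is the mm10 sequence. Capitals mark the E-box CACGTG, the GC box GGGCGG and the CCAAT box, each searched on both strands, and none of the marked matches overlap another motif.
Bax, chr7:45466899-45467148, minus strand: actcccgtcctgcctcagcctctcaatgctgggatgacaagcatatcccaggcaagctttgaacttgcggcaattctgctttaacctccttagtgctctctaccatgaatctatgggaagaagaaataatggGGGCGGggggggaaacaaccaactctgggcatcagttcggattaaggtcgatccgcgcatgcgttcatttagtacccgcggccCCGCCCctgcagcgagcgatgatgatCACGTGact
Mcl1, chr3:95658471-95658720, plus strand: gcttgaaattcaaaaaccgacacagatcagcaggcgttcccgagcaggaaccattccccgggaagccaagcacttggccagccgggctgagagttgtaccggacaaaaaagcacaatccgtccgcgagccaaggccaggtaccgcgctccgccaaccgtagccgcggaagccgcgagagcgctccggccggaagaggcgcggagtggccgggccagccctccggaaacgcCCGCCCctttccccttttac
Casp9, chr4:141793362-141793611, plus strand: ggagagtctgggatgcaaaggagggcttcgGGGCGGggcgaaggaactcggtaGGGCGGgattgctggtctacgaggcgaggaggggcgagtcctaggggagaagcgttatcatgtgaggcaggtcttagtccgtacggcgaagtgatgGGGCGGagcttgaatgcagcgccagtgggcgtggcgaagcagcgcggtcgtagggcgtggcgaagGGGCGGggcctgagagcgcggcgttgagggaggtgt
Bax held 1 E-box, whose first base lies 9 bases before the start, and 2 GC boxes. Casp9 held 4 GC boxes and Mcl1 held 1. Of the 32851 mouse promoter windows of this length, 6.0% held the E-box and 32.7% held the GC box, so the E-box is the rarer of the 2. The CCAAT box, in 33.8% of windows, was in none of the 3 printed windows, and the same held for the cyclic AMP response element TGACGTCA, in 1.5%, and the TATA box TATAAA, in 12.4%. The windows of Bak1 and of the 3 listed starts of Bcl2l1 held none of the 5 motifs. A match is a description of letters and not evidence of a bound site.

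Every one of the 5 genes was lower in adult libraries than in neonatal ones in deposited RPKM. For each gene all 7 adult libraries were below all 4 P1 and all 4 P3 libraries. The share of all tested genes that separate in this way is not given here, so the separation is not read as particular to the 5. In adult against P1, 4 of the 5 were called lower and 0 higher, beside 62.7% of all tested genes called lower and 4.32% called higher. In adult against P3, all 5 were called lower and 0 higher, beside 62.7% called lower and 9.16% called higher. These shares show how common a lower adult value was in this table, and calls on the deposited scale do not set the 5 genes apart. The genes parted on the median-gene scale. There Bax and Bak1 were called lower and none higher in adult against P1, beside 13.7% of genes called lower and 21.6% higher, and Bax alone was called lower in adult against P3, beside 19.1% lower and 27.1% higher.

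**Figure D1:**
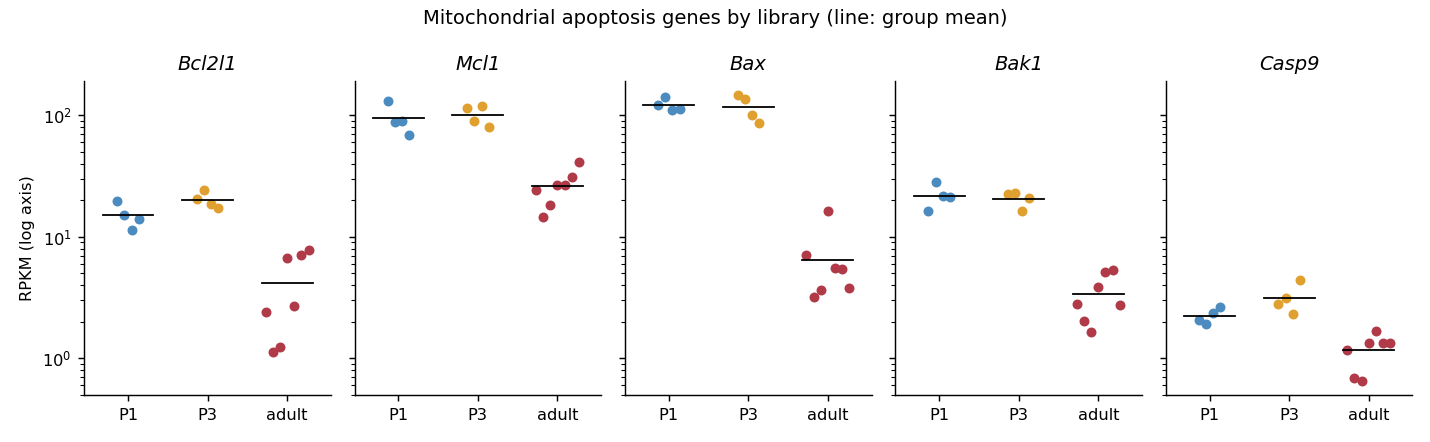
RPKM of the 5 genes on a log axis, by library, with P1, P3 and adult from left to right. Each point is a library and each line is a group mean; adult points lie under all neonatal points for every gene, and the gap is widest for Bax.

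Bcl2l1 encodes BCL-XL, a guardian that binds BAX, BAK and BH3-only proteins at the mitochondrial surface. Its level was 19.7, 15.2, 11.4 and 14.01 RPKM in P1 libraries 1 to 4 and 20.4, 24.1, 18.8 and 17.2 RPKM in P3 libraries 1 to 4. In adults it ran from 1.13 to 7.74 RPKM with a median of 2.68. The adult libraries formed a wide spread, with 1.13 to 2.68 RPKM in libraries 1, 2, 3 and 5 and 6.73 to 7.74 RPKM in libraries 4, 6 and 7. On the deposited scale Bcl2l1 was lower in adult than in P1 by a log2 change of -1.999 (SE 0.40, limma adjusted p = 0.000133) and lower than in P3 by -2.42 (limma adjusted p = 1.47e-05). Against P1 the change was -2.46 with adult libraries 1 to 4 and -1.39 with adult libraries 5 to 7. After median-gene scaling the changes were -0.55 (limma adjusted p = 0.145) and -0.87 (limma adjusted p = 0.0221), neither was called, and the adult libraries overlapped both neonatal groups.

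Mcl1 encodes a short-lived guardian that restrains BAK above all and also has roles inside mitochondria. It was at 131.4, 88.5, 89.9 and 68.9 RPKM in P1 libraries 1 to 4 and 115.7, 90.8, 119.7 and 79.8 RPKM in P3 libraries 1 to 4. Adult libraries ran from 14.6 to 41.6 RPKM with a median of 26.5, so Mcl1 had the highest level of the 5 genes in each of the 7 adult libraries. On the deposited scale it was lower in adult than in P1 by -1.87 (SE 0.26, limma adjusted p = 1.97e-06) and lower than in P3 by -1.99 (limma adjusted p = 7.62e-07). The change against P1 was -2.15 with adult libraries 1 to 4 and -1.49 with adult libraries 5 to 7. Relative to the median gene Mcl1 changed by -0.42 (limma adjusted p = 0.0789) and -0.44 (limma adjusted p = 0.0577), and its adult libraries overlapped both neonatal groups. Adult Mcl1 sat 2.52 to 3.43 log2 units above the median gene of its own library, against 2.89 to 3.82 at P1 and 3.00 to 3.62 at P3.

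Bax, which encodes a pore former that is mostly cytosolic until activated, had the deepest fall of the 5 in adults on both scales. Its level was 121.2, 141.7, 110.6 and 113.2 RPKM in P1 libraries 1 to 4 and 146.4, 137.5, 101.6 and 86.1 RPKM in P3 libraries 1 to 4. The adult libraries 1 to 7 had 7.02, 3.22, 3.64, 16.3, 5.56, 5.48 and 3.82 RPKM. Library 4 was the highest adult library and still lay far under the lowest neonatal library. The group means were 6.44 ± 4.56 RPKM in adults and 121.7 ± 14.1 RPKM at P1 (SD, n = 7 and 4), so the P1 mean was 18.9 times the adult mean. At P3 the mean was 117.9 ± 28.7 RPKM (SD, n = 4), or 18.3 times the adult mean.

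The change of Bax on the deposited scale was -4.32 in adult against P1 (SE 0.32, limma adjusted p = 1.12e-09) and -4.25 in adult against P3 (limma adjusted p = 6.05e-10). Against P1, 92 of the 9389 tested genes (1.0%) fell more deeply, and against P3 202 did (2.2%), a rank that is the same on the median-gene scale. There the changes were -2.87 (limma adjusted p = 1.14e-07) and -2.71 (limma adjusted p = 9.65e-08), and the adult libraries stayed below every neonatal library, at 0.15 to 1.997 log2 units above their median gene against 3.53 to 3.90 at P1 and 3.11 to 3.80 at P3. The change against P1 was -4.19 with adult libraries 1 to 4, -4.50 with adult libraries 5 to 7 and -4.57 without adult library 4. Against P3 library 1 alone, a setting chosen after the marker sums were seen because that library had the highest cardiomyocyte sum at P3, the change was -4.60, and with 1 library in that arm its spread is taken from the other groups. Adult library 4 also had the highest sums of endothelial (215), fibroblast (68.5), mural (98.3) and cardiomyocyte (27440) marker RPKM among the adults. Its RPKM summed over all rows was the highest adult value too, at 280111.8, where the other adult libraries had 145049.8 to 195003.5. The part of these in its Bax level was not tested. Bax rested on 31 to 89 reads in an adult library, 1079 to 1298 at P1 and 767 to 1730 at P3, counting 1 step of the RPKM values as 1 read. Whether a step is 1 read in adult libraries 1 to 4 is not known, and the reads given for adults rest on that choice.

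Bak1 encodes the second pore former, which sits in the outer membrane at all times. Its level was 16.3, 28.2, 21.7 and 21.2 RPKM in P1 libraries 1 to 4 and 22.4, 23.1, 16.4 and 20.8 RPKM in P3 libraries 1 to 4. Adult libraries ran from 1.63 to 5.32 RPKM with a median of 2.80, all below the neonatal ones. On the deposited scale Bak1 changed by -2.60 in adult against P1 (SE 0.26, limma adjusted p = 3.63e-08) and by -2.53 in adult against P3 (limma adjusted p = 3.4e-08). On the median-gene scale the changes were -1.14 (limma adjusted p = 5.78e-05) and -0.98 (limma adjusted p = 0.000176), the second just under the size needed for a call, and adult libraries did not overlap either neonatal group. Against P1, 1037 genes fell more deeply than Bak1. The change against P1 was -2.89 with adult libraries 1 to 4 and -2.21 with adult libraries 5 to 7.

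Casp9, the initiator caspase of this route, had the lowest RPKM of the 5 genes in all 15 libraries and the smallest fall in both comparisons with adults on the deposited scale. Its level was 2.05, 1.92, 2.38 and 2.64 RPKM in P1 libraries 1 to 4 and 2.81, 3.14, 2.30 and 4.38 RPKM in P3 libraries 1 to 4. Adult libraries ran from 0.655 to 1.69 RPKM with a median of 1.34, below the neonatal ones by a narrow margin. On the deposited scale Casp9 changed by -0.74 in adult against P1 (SE 0.20, limma adjusted p = 0.00241), which was not called, and by -1.13 in adult against P3 (limma adjusted p = 3.89e-05), which was called. That call was lost without P3 library 4 (-0.98), with adult libraries 5 to 7 alone (-0.88), with a pseudocount of 1 (-0.93) and with libraries scaled to an equal RPKM sum (-0.71).

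The direction of Casp9 turned on the median-gene scale. There it was higher in adult than in P1 by 0.71 (limma adjusted p = 0.000504) and higher than in P3 by 0.42 (limma adjusted p = 0.0186), both too small to be called. Adult libraries were 1.21 to 0.88 log2 units under their median gene, above all P1 libraries, which were 1.98 to 1.58 under it, and overlapping the P3 libraries, which were 1.81 to 1.04 under it. Casp9 thus changed less than the median gene in adults, while Bax, Bak1, Bcl2l1 and Mcl1 changed more. Of these, Bcl2l1 and Mcl1 were called in neither comparison on the median-gene scale. Casp9 rested on 25 to 113 reads in an adult library, 79 to 116 at P1 and 108 to 175 at P3, on the same count of 1 read a step.

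**Figure D2:**
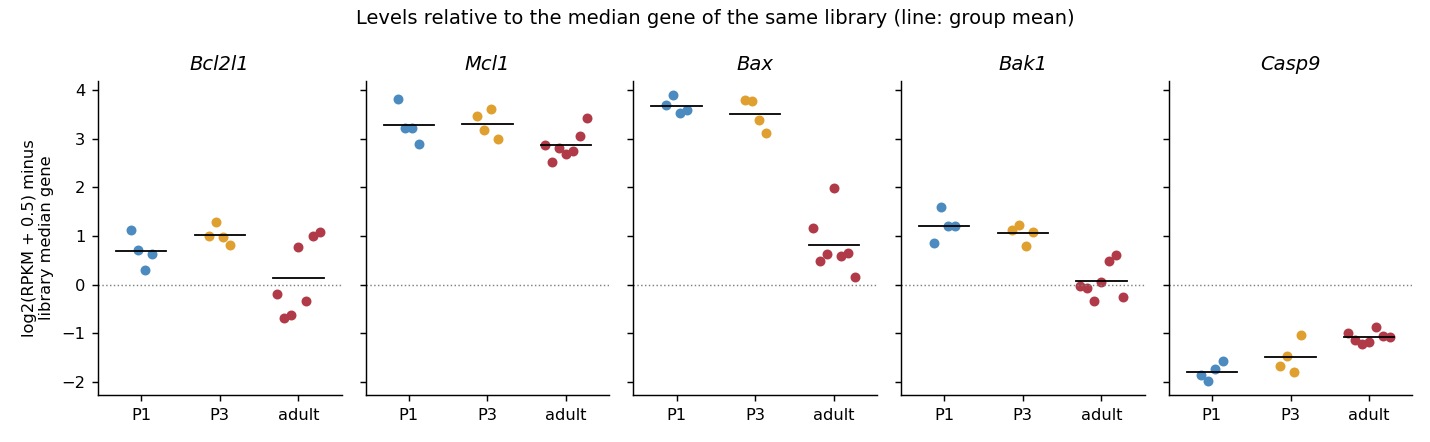
Level of each gene as log2(RPKM + 0.5) minus the median gene of its library, for P1, P3 and adult libraries; points are libraries, lines are group means and the dotted line is the median gene. Adult Bax and Bak1 lie under all neonatal libraries, adult Casp9 lies above all P1 libraries, and Bcl2l1 and Mcl1 overlap.

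Between P3 and P1 the 5 genes did not separate. In limma 0 of 5 were called in either direction on the deposited scale, beside 1.4% of genes called higher and 5.31% called lower, and 0 of 5 had an unadjusted p under 0.05, beside 27.5% of all tested genes. On the median-gene scale 0 of 5 were called as well, beside 1.18% higher and 7.54% lower. The background is itself loose here, since 630 genes were called and leaving out 1 of the 8 neonatal libraries gave 75 to 1189. The change in P3 against P1 was 0.42 for Bcl2l1 (95% interval -0.52 to 1.36), 0.12 for Mcl1 (-0.49 to 0.72), -0.07 for Bax (-0.82 to 0.68), -0.07 for Bak1 (-0.68 to 0.54) and 0.39 for Casp9 (-0.09 to 0.87), on the deposited scale. These intervals leave room for a log2 change of up to 1.36 in Bcl2l1, past the size needed for a call. For the others they leave room for changes under 1 in size. The spread behind the intervals was estimated over all 15 libraries, adults included. The Bcl2l1 interval was -0.37 to 1.21 with adult libraries 1 to 4 and -0.19 to 1.03 with adult libraries 5 to 7. The P3 and P1 libraries overlapped for each gene.

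**Figure D3:**
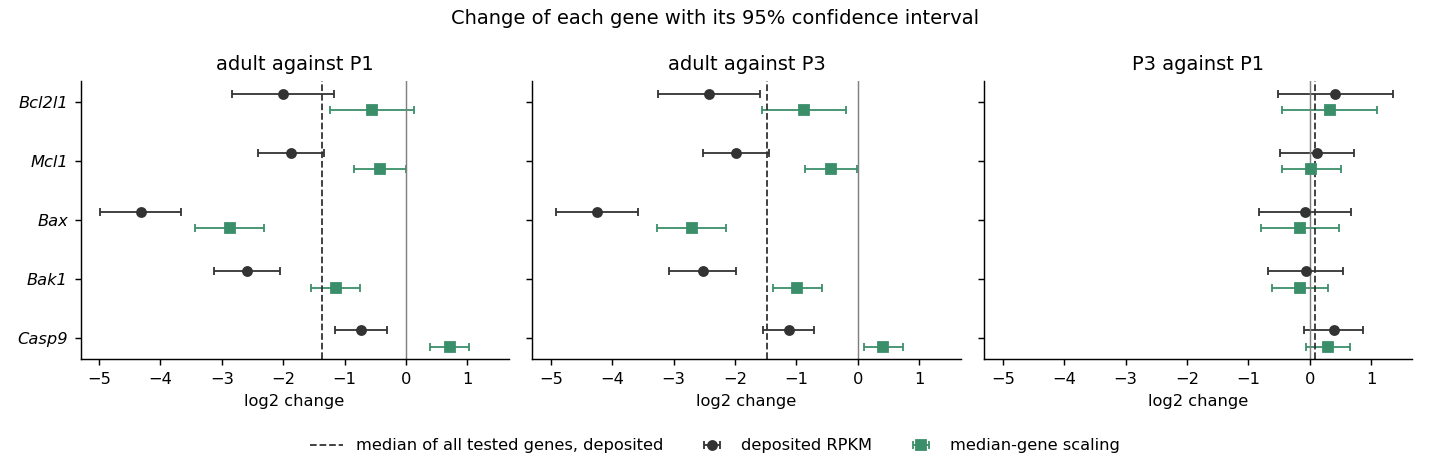
Log2 change of each gene in the 3 comparisons with its 95% confidence interval from limma, on the deposited scale (circles) and the median-gene scale (squares); the dashed line is the median change of all tested genes on the deposited scale. Bax lies furthest left in both comparisons with adults, Casp9 crosses to the right of 0 on the median-gene scale, and all intervals of P3 against P1 hold values on both sides of 0.

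Ratios taken within a library are free of the scaling of that library, and they set the RPKM of the pore formers beside that of the guardians. They are not free of the mix of cell types in the library, whose part was not tested. They are given as descriptions with no test. The ratio of Bax to Bcl2l1 RPKM was 6.14 to 9.72 at P1 and 5.01 to 7.17 at P3. In adult libraries 1 to 5 it was 2.08 to 2.92, and in adult libraries 6 and 7 it was 0.766 and 0.494. Bax thus exceeded Bcl2l1 in all 8 neonatal libraries and in 5 of the 7 adult ones, and each adult ratio was below each neonatal one. The mean log2 ratio was lower by 2.24 in adult than in P1, and by 1.74 in adult than in P3.

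The ratio of Bax to Mcl1, added after the data were seen, was 0.922 to 1.64 at P1, 0.849 to 1.52 at P3 and 0.0919 to 0.616 in adults. Adult libraries were again all below the neonatal ones, with the highest adult value in library 4. Bax was the highest of the 5 genes in 3 of 4 P1 and 3 of 4 P3 libraries, whereas Mcl1 was the highest in all 7 adult libraries. The ratio of the 2 pore formers, Bax to Bak1, was 5.02 to 7.41 at P1, 4.14 to 6.54 at P3 and 1.03 to 4.18 in adults, where library 4 with 4.18 was the one that reached the P3 range. Bak1 to Mcl1 was 0.124 to 0.319 at P1, 0.137 to 0.261 at P3 and 0.0665 to 0.194 in adults, and these groups overlapped. Mcl1 to Bcl2l1 also overlapped, with 4.92 to 7.90 at P1, 3.77 to 6.37 at P3 and 3.94 to 14.6 in adults.

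**Figure D4:**
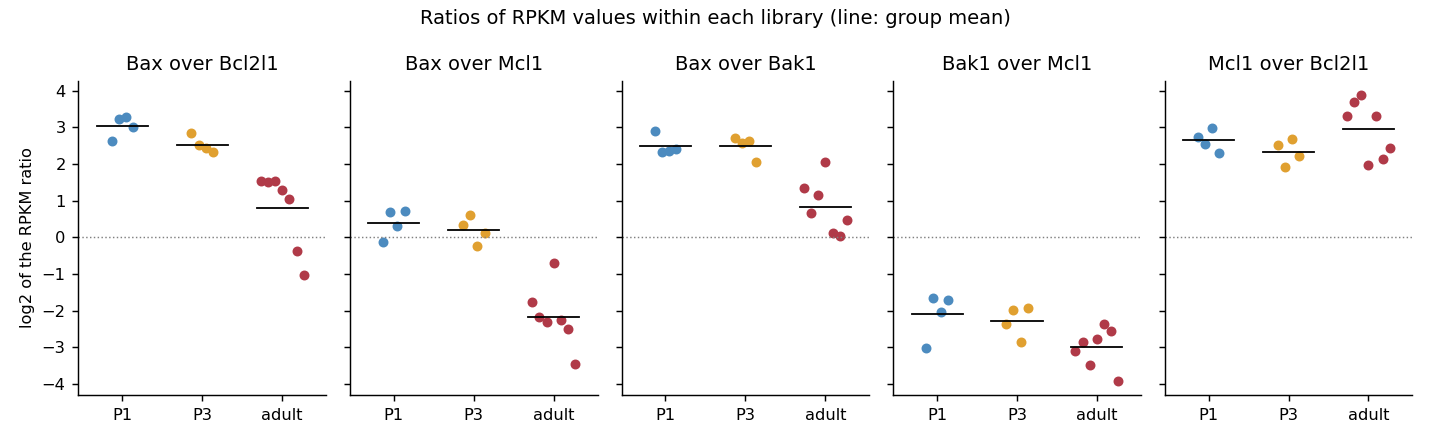
Log2 of 5 within-library RPKM ratios for P1, P3 and adult libraries; points are libraries, lines are group means and the dotted line marks equal RPKM. The ratios of Bax to Bcl2l1 and to Mcl1 are lower in all adult libraries than in any neonatal library, while Bak1 to Mcl1 and Mcl1 to Bcl2l1 overlap.

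The likeness of patterns was measured as the root mean square difference between 2 profiles of log2(RPKM + 0.5) over the 15 libraries, each centred on the mean of its 3 group means. Among the 5 genes, the guardians Bcl2l1 and Mcl1 were the most alike pair (0.471), and Bax and Casp9 the least alike (1.81). Over all tested genes, the nearest to Bax were Pgrmc1, a haem-binding membrane protein (0.239), and the non-coding Snhg15 (0.242), beside a median distance of 1.58 from Bax. Pgrmc1 averaged 2.66 ± 2.14 RPKM in adults against 58.8 ± 13.1 at P1 (SD, n = 7 and 4). The nearest to Bak1 were Chd3, a chromatin remodeller (0.226), and Dpp3, a peptidase (0.231). The nearest to Bcl2l1 were Midn (0.317) and Lrrc8a, a subunit of volume-regulated anion channels (0.353). Mcl1 was nearest to Epc1 (0.175) and Zxdc (0.183), and Casp9 to Ccdc32 (0.158) and Coil, the coilin of nuclear Cajal bodies (0.177). The libraries share their depth and their cell makeup, so these distances are descriptions.

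The rest of the pathway was read from lists of 61 other genes, of which 47 were in the table and 46 were tested. In adult against P1, 28 were called lower and 1 higher, with a median change of -1.37, and in adult against P3, 27 were called lower and 6 higher, with a median of -1.42, beside 62.7% of all tested genes called lower in each comparison and 4.32% and 9.16% called higher. Both medians lie close to those of all genes, -1.36 and -1.48. On the median-gene scale the counts were 5 lower and 11 higher against P1, beside 13.7% lower and 21.6% higher over all genes, and 7 lower and 14 higher against P3, beside 19.1% and 27.1%. In the paragraphs on these genes a pair of values gives adult against P1 and then adult against P3. Bcl2l2, the other guardian in the table (BCL-W), changed by -0.68 and -0.61 on the deposited scale and was not called. Its direction turned on the median-gene scale, to 0.78 (limma adjusted p = 0.000462) and 0.93 (limma adjusted p = 5.8e-05), both too small for a call. It is named here after its values were seen, as the one member of its list in the table. Bcl2, Bcl2l10, Bok, Bid and Casp8 are among the genes not analysed here.

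**Figure D5:**
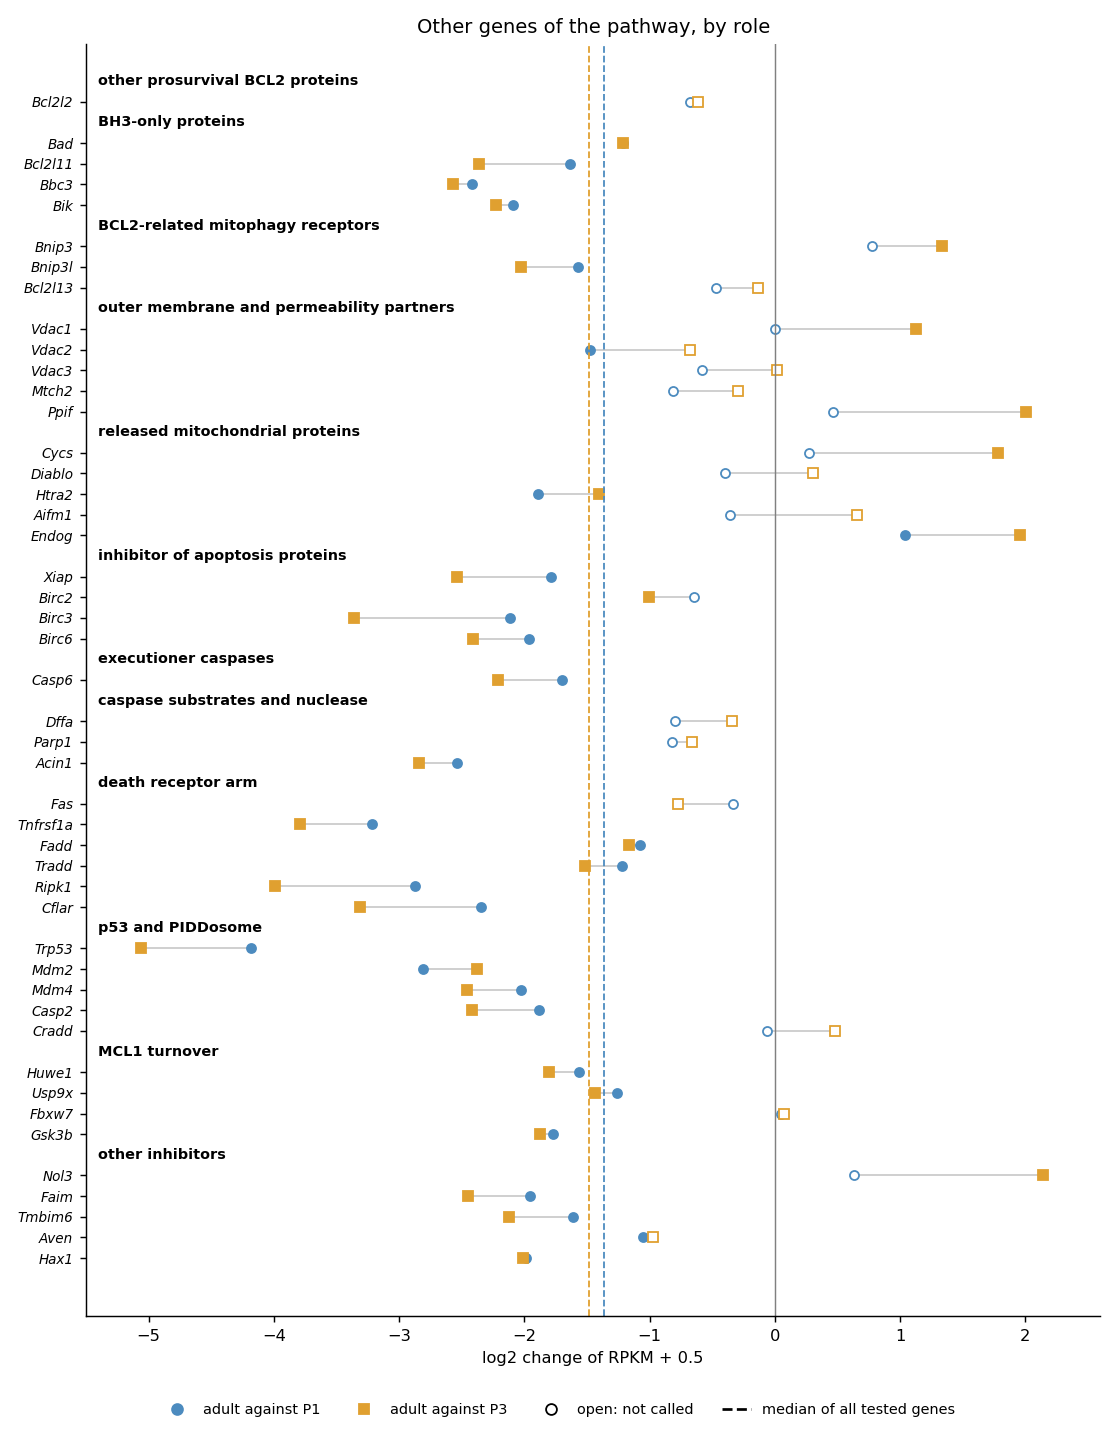
Log2 change on the deposited scale of the 46 other tested pathway genes, grouped by role, for adult against P1 (circles) and adult against P3 (squares); filled symbols were called and dashed lines are the medians of all tested genes. Most genes lie left of 0, with Trp53 furthest left and several mitochondrial proteins at or right of 0.

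Some of these genes share sequence or position with others. Vdac2, Htra2, Endog, Ripk1 and Acin1 overlap Comtd1, Aup1, Spout1, Serpinb6a and 1700123O20Rik on the opposite strand, all of which are in the table, and Cycs and Vdac1 are known to have processed pseudogenes, so their share of reads is uncertain.

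All 4 tested BH3-only genes, which signal to the pore formers, were called lower in both comparisons with adults on the deposited scale, beside 62.7% of all tested genes in each. Bbc3 (PUMA) averaged 0.293 ± 0.178 RPKM in adults against 3.72 ± 0.875 at P1 (SD, n = 7 and 4), a change of -2.42 (limma adjusted p = 2.59e-09). Bcl2l11 (BIM) changed by -1.64 and -2.36 and Bik by -2.09 and -2.22. With median genes made equal, 0 of 4 were called against P1 by limma, and Bbc3 alone was called against P3 (-1.03). The all-gene shares on that scale were 13.7% lower and 21.6% higher against P1, and 19.1% and 27.1% against P3. There Bcl2l11 was at -0.19 and -0.82 and Bik at -0.64 and -0.68. Of the 3 BCL2-related mitophagy receptors, Bnip3l was called lower in both comparisons on the deposited scale (-1.57 and -2.02) and in neither on the median-gene scale (-0.12 and -0.48). Bnip3 averaged 65.7 ± 17.8 RPKM in adults against 32.1 ± 23.4 at P3 (SD, n = 7 and 4) and was called higher there (1.33, limma adjusted p = 0.00899). Bnip3 was not called against P1 on the deposited scale (0.77), whereas on the median-gene scale it was called higher in both comparisons (2.22 and 2.88). Its deposited-scale call against P3 was lost without P3 library 1 (0.99) or 2 (0.98) and with adult libraries 1 to 4 alone (1.12), and without P1 library 1 it was called higher against P1 (1.14).

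Of the 10 tested mitochondrial proteins of the outer membrane, the permeability pore and the released set, 1 was called higher and 2 lower in adult against P1 on the deposited scale, and 4 higher and 1 lower in adult against P3. The all-gene shares beside these are the 4.32% and 9.16% called higher and the 62.7% called lower in each. On the median-gene scale 6 of the 10 were called higher against P1 and 8 against P3, beside 21.6% and 27.1% of all tested genes. Cycs, which encodes the cytochrome c that APAF1 senses, averaged 228.4 ± 29.0 RPKM in adults, against 192.1 ± 49.4 at P1 and 78.9 ± 60.9 at P3 (SD, n = 7, 4 and 4). It was not called on the deposited scale in adult against P1 (0.28, limma adjusted p = 0.42) and was called higher in adult against P3 (1.78, limma adjusted p = 3.84e-05). After median-gene scaling it was called higher in both (1.73, limma adjusted p = 0.000145, and 3.32). Endog, a mitochondrial nuclease, was called higher in both comparisons on the deposited scale (1.04 and 1.96) and on the median-gene scale (2.49 and 3.50). Its deposited-scale call against P1 was lost without adult library 4 (0.80), P1 library 1 (0.92) or P1 library 4 (0.96) and with adult libraries 5 to 7 alone (0.79). Ppif, the cyclophilin of the permeability transition, and Vdac1, an outer membrane channel, were called higher in adult against P3 (2.01 and 1.13) and not against P1 (0.46 and 0.00) on the deposited scale. Both were called higher against P1 as well on the median-gene scale (1.91 for Ppif and 1.45 for Vdac1). The deposited-scale call of Vdac1 was lost without P3 library 3 (0.996) or 4 (0.95) and with adult libraries 1 to 4 alone (0.97). Vdac2 was called lower against P1 (-1.48), and Htra2, a released protease, was called lower in both comparisons (-1.89 and -1.41), on the deposited scale. Neither was called on the median-gene scale, with -0.03 and 0.87 for Vdac2 and -0.44 and 0.14 for Htra2.

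The deposited-scale changes against P3 in this group depended on the P3 libraries used. P3 library 1 had a cardiomyocyte marker sum of 5193, against 567 to 1128 in P3 libraries 2 to 4. Against that library alone, the changes in adults were 0.42 for Cycs, 0.21 for Ppif, 0.20 for Vdac1 and 0.92 for Endog, all under the size needed for a call. Vdac2 was at -1.45 there, in place of -0.68 with all P3 libraries. Bnip3, a mitophagy receptor, was at 2.35, in place of 1.33. This comparison was chosen after the marker sums were seen and assumes that the lone library varies like the others. The count of the 46 pathway genes called higher was then 2 in place of 6, and the count called lower was 29 in place of 27, beside 4.67% of all genes called higher and 64.1% called lower at that setting. The part of other cell types in these changes was not tested. The 5 mitochondrial apoptosis genes were all called lower against that library as well, from -4.60 for Bax to -1.01 for Casp9, which is to be read against the same 64.1%.

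Downstream of the apoptosome, 3 of the 4 inhibitor of apoptosis genes were called lower against P1 and all 4 against P3 on the deposited scale, where 62.7% of all genes were called lower. Birc3 (cIAP2) changed by -2.11 and -3.36, Xiap, a direct inhibitor of caspases, by -1.78 and -2.54, and the large ubiquitin ligase Birc6 by -1.96 and -2.41. Birc2 (cIAP1) was at -0.64 against P1, not called, and at -1.004 against P3. That call of Birc2 was lost without adult library 1, 2, 3 or 6 or P3 library 3 or 4 (-0.985 to -0.81), with adult libraries 5 to 7 alone (-0.82) and with P3 library 1 alone (-0.745). With median-gene scaling 0 of the 4 inhibitors were called against P1 in limma, Birc3 alone was called against P3 (-1.81), and Birc2 turned to 0.81 and 0.54. Beside these, 13.7% of all genes were called lower and 21.6% higher against P1 on that scale, and 19.1% and 27.1% against P3. There Xiap was at -0.33 and -0.99 and Birc6 at -0.51 and -0.87. The caspase Casp6, which acts downstream of initiator caspases, was called lower on the deposited scale (-1.70 and -2.21) and was not called on the median-gene scale (-0.24 and -0.67). Of 3 caspase substrates and nuclease genes, Acin1, linked to chromatin condensation, was called lower on the deposited scale (-2.54 and -2.84) and on the median-gene scale (-1.09 and -1.30). The others were not called on the deposited scale, with -0.80 and -0.34 for the nuclease inhibitor Dffa and -0.82 and -0.66 for the DNA repair enzyme Parp1. Both turned on the median-gene scale, where Dffa was at 0.66 and 1.21, the second called higher, and Parp1 at 0.63 and 0.88. Parp1 was called lower against P1 with adult libraries 1 to 4 alone (-1.12, deposited scale). Birc2, Dffa and Parp1 are named after their values were seen.

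Of the 46 genes, the deepest fall in the comparisons with adults was that of Trp53, in the arms upstream of the mitochondrion. Trp53, which encodes the p53 factor known to act on Bax and Bbc3, averaged 1.36 ± 0.969 RPKM in adults, against 30.7 ± 8.35 at P1 and 56.4 ± 9.98 at P3 (SD, n = 7, 4 and 4). Its changes were -4.18 (limma adjusted p = 8.11e-10) and -5.06 (limma adjusted p = 5.45e-11), and it was called lower on the median-gene scale too (-2.73 and -3.52). Its negative regulators Mdm2 (-2.81 and -2.38) and Mdm4 (-2.03 and -2.46) were called lower on the deposited scale, and on the median-gene scale Mdm2 was called lower against P1 (-1.36 and -0.83) and Mdm4 in neither comparison (-0.58 and -0.91). In the death receptor arm 5 of 6 tested genes were called lower in both comparisons on the deposited scale, beside 62.7% of all genes, among them the receptor Tnfrsf1a (-3.22 and -3.79), its adaptor kinase Ripk1 (-2.87 and -3.99) and the inhibitor Cflar (-2.34 and -3.31). Tnfrsf1a (-1.76 and -2.24) and Ripk1 (-1.42 and -2.45) were called lower in both comparisons on the median-gene scale too, and Cflar against P3 (-0.89 and -1.76). The other tested gene, the death receptor gene Fas, named after its values were seen, was not called on the deposited scale (-0.33 and -0.78) and was called higher against P1 on the median-gene scale (1.12 and 0.77). Over all genes, 13.7% were called lower and 21.6% higher against P1 on the median-gene scale. Against P3 these shares were 19.1% and 27.1%.

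Of 4 genes that act on the turnover of the MCL1 protein, 3 were called lower in both comparisons on the deposited scale, beside 62.7% of all genes. The ubiquitin ligase Huwe1 changed by -1.57 and -1.80, the deubiquitinase Usp9x by -1.26 and -1.44 and the kinase Gsk3b by -1.77 and -1.87. The fourth, the ubiquitin ligase subunit Fbxw7, named after its values were seen, was at 0.05 and 0.07 on the deposited scale, not called, and was called higher on the median-gene scale (1.498 and 1.62). Against P1, with adult libraries 5 to 7 alone, Huwe1 (-0.86) and Usp9x (-0.81) were not called. With median-gene scaling Huwe1 (-0.12 and -0.26), Usp9x (0.19 and 0.11) and Gsk3b (-0.32 and -0.33) were not called in limma, and the direction of Usp9x turned. Among other inhibitors of cell death, Faim (-1.96 and -2.45), Hax1 (-1.99 and -2.01) and Tmbim6 (-1.61 and -2.12) were called lower on the deposited scale. None of these 3 was called on the median-gene scale, with -0.51 and -0.90 for Faim, -0.53 and -0.47 for Hax1, and -0.16 and -0.57 for Tmbim6. On that scale 13.7% of all genes were called lower and 21.6% higher against P1. Against P3 these shares were 19.1% and 27.1%. Nol3 (ARC), a death repressor enriched in striated muscle that is named here after its values were seen, averaged 7.12 ± 2.52 RPKM in adults, against 4.33 ± 1.27 at P1 and 1.35 ± 1.15 at P3 (SD, n = 7, 4 and 4). It was called higher on the deposited scale in adult against P3 (2.14, limma adjusted p = 2.11e-06) and not against P1 (0.63, limma adjusted p = 0.0581), whereas on the median-gene scale it was called higher in both (2.08, limma adjusted p = 2.08e-06 against P1, and 3.69 against P3).

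Between P3 and P1, 2 of the 46 genes were called higher and 5 lower on the deposited scale, beside 1.4% of all genes called higher and 5.31% called lower. Ripk1 (1.12, limma adjusted p = 0.0173) and Birc3 (1.24, limma adjusted p = 0.0192) were higher at P3. Vdac1 (-1.13), Ppif (-1.54), Cycs (-1.50), Nol3 (-1.51) and Aifm1 (-1.01), the last encoding a flavoprotein of the intermembrane space and named after its values were seen, were lower at P3, and each of the 7 was called on the median-gene scale too. All 7 deposited-scale calls were lost without P1 library 2 (limma adjusted p of 0.0709 to 0.161), P1 library 3, P3 library 3 or P3 library 4, some also without P1 library 4 or P3 library 2, and that of Ppif also without adult library 1, 5 or 6. The endothelial marker sum was 706 to 1668 at P3 against 210 to 481 at P1, without overlap, and its part in these calls was not tested.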

How the data were processed

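Ventricular cardiomyocyte RNA was measured in 15 libraries (7 adult, 4 P1, 4 P3), grouped by their titles. The authors deposited 1 table of RPKM, and HISAT2, Partek 6.6 and the build mm10 are listed in the submitters' processing notes. The annotation, the counting options and the use of strand are not stated.

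From these values, the 9389 of 9666 rows that reached 1 RPKM in 4 or more libraries were tested with limma 3.58.1 (R 4.3.3) after adding 0.5 and taking log2 (eBayes with trend, 3 group coefficients, two-sided). Calls needed a Benjamini-Hochberg adjusted p under 0.05 and a log2 change of at least 1. Fold changes of low genes are understated on this scale. Each gene had 1 estimate of spread shared by the 3 groups, so scatter among adults enters the P3 against P1 tests. In simulated data of 9389 genes, log2 changes of 1.5 were planted in 200. Of these, 92.5%, 90% and 87% were called in adult against P1, adult against P3 and P3 against P1. The simulation had no shift common to all genes and gave each gene the same spread in every group. These rates may therefore not hold for the deposited values.

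RPKM steps gave whole reads for 88.2% of 9664 genes (relative tolerance 3e-05), for 0 of 500 genes after a 1% random change, and for all 5 genes reported. Whether a step is 1 read in adult libraries 1 to 4 is not known. The RPKM denominators, in units of 1000000 reads, were 6.3 to 17.1 in adults, 10.5 to 11.2 at P1 and 9.4 to 13.6 at P3.

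The genes, lists and tests were chosen with earlier results of these data known. Named are the listed genes, up to 3 called genes of each pathway list with the largest mean change, and the 2 genes nearest in pattern to each listed gene; exceptions are marked. Some genes of the lists are not reported here. Promoters are from RefSeq and all 6 listed genes were matched. Alternatives were pseudocounts, filtering, scaling, spread model, libraries left out and a replicate block.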

Additional observations from a re-analysis of the deposited data

Results flagged for a closer look

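A library was set apart here when its distance to the nearest other library of its group was large against the range of that group (Dixon's test, 95% level). Of 138 groups of libraries examined, 16 had such a library, and chance gives about 1 in 20, or 5% of them. The causes were not tested.

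Of the 5 mitochondrial apoptosis genes, Bax was set apart in adult library 4, with 16.3 RPKM where the other adult libraries had 3.22 to 7.02. In P1 library 1 the log2 ratio of Bax to Bak1 was 2.89, where the other P1 libraries had 2.33 to 2.42.

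Adult library 4 was also the highest adult library for Htra2 (8.00 RPKM), Endog (39.6 RPKM), Casp6 (4.54 RPKM), Tnfrsf1a (10.8 RPKM) and Hax1 (15.5 RPKM). Its RPKM sum over all rows, 280111.8, was the highest among the adults as well. In adult library 7, Mdm4 was at 3.49 RPKM, where the other adult libraries had 0.589 to 1.66.

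P1 library 1, which had the highest fibroblast marker sum, was the highest P1 library for Cflar (12.5 RPKM), Trp53 (43.1 RPKM), Hax1 (39.7 RPKM) and Tmbim6 (78.1 RPKM). P3 library 2 was the highest P3 library for Bcl2l2 (13.7 RPKM, others 10.4 to 10.9). P3 library 4 was the highest P3 library for Tnfrsf1a (74.5 RPKM, others 35.9 to 40.7). P3 library 1 was the highest P3 library for Nol3 (3.08 RPKM, others 0.741 to 0.841) and Aifm1 (24.4 RPKM, others 10.8 to 11.7), and it also had the highest cardiomyocyte marker sum of the P3 libraries.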

How the results depend on the processing

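The lower deposited levels of Bcl2l1, Mcl1, Bax and Bak1 in adult against P1 and P3 kept their direction under every alternative run, and scaling moved the number of calls. In adult against P1, 6293 genes were called as deposited (406 higher, 5887 lower), 3314 under median-gene scaling (2032 higher, 1282 lower) and 3336 under quantile normalization (1697 higher, 1639 lower), with 2 of the 5 genes called under either in place of 4. In adult against P3, 6751 genes were called as deposited (860 higher, 5891 lower) and 4344 under median-gene scaling (2547 higher, 1797 lower), with 1 of the 5 called in place of 5, and 3 under quantile normalization. Among the named genes, the directions that turned with scaling in adults were those of Casp9 (0.71 and 0.42 for adult against P1 and P3 under median-gene scaling, 0.55 and 0.17 under quantile normalization), Usp9x (0.19 and 0.11, 0.15 and 0.035), Bcl2l2 (0.78 and 0.93, 0.70 and 0.87), Birc2 (0.81 and 0.54, 0.79 and 0.50), Dffa (0.66 and 1.21, 0.64 and 1.13, and 0.17 against P3 with an equal RPKM sum), Parp1 (0.63 and 0.88, 0.56 and 0.82), Fas (1.12 and 0.77, 1.08 and 0.73, and 0.28 against P1 with an equal RPKM sum), Aifm1 against P1 (1.09, 0.85, and 0.33 with an equal RPKM sum), and Vdac2 (0.87) and Htra2 (0.14 and 0.11) against P3. Vdac1, with a change of 0.00 against P1, was -0.16 with adult libraries 1 to 4 and -0.18 to 0.15 with 1 library left out. Fbxw7 was -0.07 and -0.045 with adult libraries 1 to 4, -0.021 against P3 library 1 alone, and -0.038 to 0.129 and -0.012 to 0.154 with 1 library left out.

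In P3 against P1, 630 calls became 413 with adult libraries 1 to 4, 0 with P3 library 1 alone (108 of 9389 genes at an unadjusted p under 0.05 in limma, so that setting says nothing of single genes), and 75 (without P3 library 3) to 1189 (without P3 library 1) with 1 library left out. Each of the 8 neonatal libraries moved this count by over 1.5 times. Small changes turned sign there, with 1 library left out for Mcl1 (-0.02 to 0.29), Bax (-0.19 to 0.068), Bak1 (-0.19 to 0.064), Bik (-0.13 to 0.38), Bcl2l2 (-0.15 to 0.018), Fbxw7 (-0.065 to 0.046) and Hax1 (-0.023 to 0.15). They also turned for Bax with quantile normalization (0.11) and an equal RPKM sum (0.06), for Bak1 (0.063), Bcl2l2 (0.066) and Fbxw7 (0.092) with an equal sum, for Gsk3b with quantile normalization (-0.005) and for Hax1 with median-gene scaling (-0.067). With P3 library 1 alone they turned for Bax (0.27), Bak1 (0.058), Bik (-0.07), Bnip3l (-0.015), Dffa (0.024), Fbxw7 (0.068), Ppif (0.26), Htra2 (0.077), Endog (0.12), Xiap (-0.15), Mdm2 (0.041), Mdm4 (-0.24), Gsk3b (-0.091) and Huwe1 (-0.13), and for Aifm1 in adult against P3 (-0.14). The cause of these turns was not tested.

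Same-numbered libraries did not deviate together: of 12 pairs, 3 correlated above 0.1 (range -0.51 to 0.37), and 2 of 12 libraries matched best with their own number. The replicate block gave 183 calls in P3 against P1, with -0.16 for Vdac1 in adult against P1 and -0.07 and -0.045 for Fbxw7 in adult against P1 and P3. The block leaves adult libraries 5 to 7 without a partner. Depth limits Casp9 and Bax in adults most, at 25 to 113 and 31 to 89 reads a library if 1 step is 1 read, which is not known for adult libraries 1 to 4.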
